A study of Rattus norvegicus with 3 samples.

Results

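Carbonic anhydrases were described in 3 soft tissues of the rat upper molar region. The family members were chosen by name, as 10 listed genes, and every probe set (the short probes on the array that report on the same transcript) that the platform annotation assigns to them was taken. Of the 10 genes, 9 had a probe set, with 14 probe sets in all, among 14217 genes measured. Car13 had none in that annotation and has no value here. The list was drawn up with results of these arrays known, so the levels and differences below are a description.

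The RNA came from wild type male Sprague Dawley rats aged 9 weeks, with 1 array for each tissue. PICT is peri-implant connective tissue, taken 4 weeks after a first molar was pulled and a titanium alloy implant was put straight into its socket. PCT is periodontal connective tissue, taken around the first molar of rats that had no surgery described. OMCT is oral mucosa connective tissue, taken 4 weeks after a first molar was pulled with no implant. All were cut out of sections by laser microdissection, and the labels do not say how many rats stand behind an array. The sample labels give rat for every tissue, although the word mice appears once for PCT in the design text.

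With 1 array per tissue the spread between animals is unknown and the tissues could not be compared by a test. Intensities are the authors' values on a linear scale. Differences are on the scale of log2(intensity + 8.56), which understates the difference of dim genes, and are relative to the array medians unless "as deposited" is written. The medians lay 0.60 (PICT) and 0.62 (OMCT) above that of PCT on this log2 scale, so the as-deposited and relative values differ by that much in comparisons with PCT. A gene counted as higher or lower when its relative difference reached 1 (2-fold) and the array with the stronger signal lay at or above its own median probe set. The spread between probe sets of the same gene had an SD of 0.49 on the log2 scale in each comparison (4525 genes), which measures disagreement between probes and not between animals. The ratio of 3' to 5' signal of the hexokinase control, which rises as RNA is shortened, was 1.58 for PICT, 2.80 for PCT and 1.97 for OMCT, and the part of RNA length in the differences was not tested. In bulk tissue, fewer cells of a type and less RNA per cell cannot be told apart.

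The labelled tissue was checked against markers. All 14 fibroblast genes lay at or above the array median on each array. So did all 11 measured basal keratinocyte genes, so epithelial RNA was present on every array. Of 19 measured genes of differentiated oral epithelium, 18 were higher in PICT than in OMCT and 18 lower in OMCT than in PCT, with 0 past the rule in either direction between PICT and PCT. Macrophage genes were higher than in PCT for 10 of 14 in PICT and 13 of 14 in OMCT. In the Schwann cell and nerve list 5 of 8 genes were lower in PICT than in PCT and 2 of 8 were lower in OMCT than in PCT.

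Carbonic anhydrases are zinc enzymes that turn carbon dioxide and water into bicarbonate and a proton, and back. They differ in where they sit in the cell and in how fast they work. In oral tissues they are known for acid secretion by osteoclasts, for buffering of saliva, and for handling of acid by epithelium. Car2, Car3 and Car13 are cytosolic, Car5b is mitochondrial and Car6 is secreted. Car4 is anchored to the outer face of the cell membrane by a lipid, and Car9, Car12 and Car14 cross that membrane with the catalytic domain outside. Car8 is a related protein that lacks catalytic activity.

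Car3, Car5b and Car2 were the members past the 2-fold rule. Car3 was high in PCT alone, Car5b was low in PICT alone, and Car2 was lower in OMCT than on both other arrays. This reading of Car2 rests on the probe set that represents it. Its second probe set gave 0.74 for PICT minus OMCT, under 2-fold, and -1.51 for PICT minus PCT, past 2-fold. Between PICT and PCT, 0 of 9 members were higher and 2 of 9 (22.2%) lower, Car3 and Car5b, where 3.98% of all genes were higher and 3.37% lower. Between PICT and OMCT, 1 of 9 was higher (Car2) and 1 of 9 lower (Car5b), where 4.15% of all genes were higher and 4.46% lower. Between OMCT and PCT, 0 of 9 were higher and 2 of 9 lower (Car2 and Car3), where 5.66% of all genes were higher and 4.81% lower. These counts rest on the contrasts used to choose the list and show nothing about the family. The median relative difference over the 9 members was -0.38, -0.35 and -0.32 in these comparisons, against -0.13, -0.04 and -0.08 over all genes. In all, 4 of the 9 members reached the array median on any array, so the other 5 could not pass the rule.

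**Figure D1:**
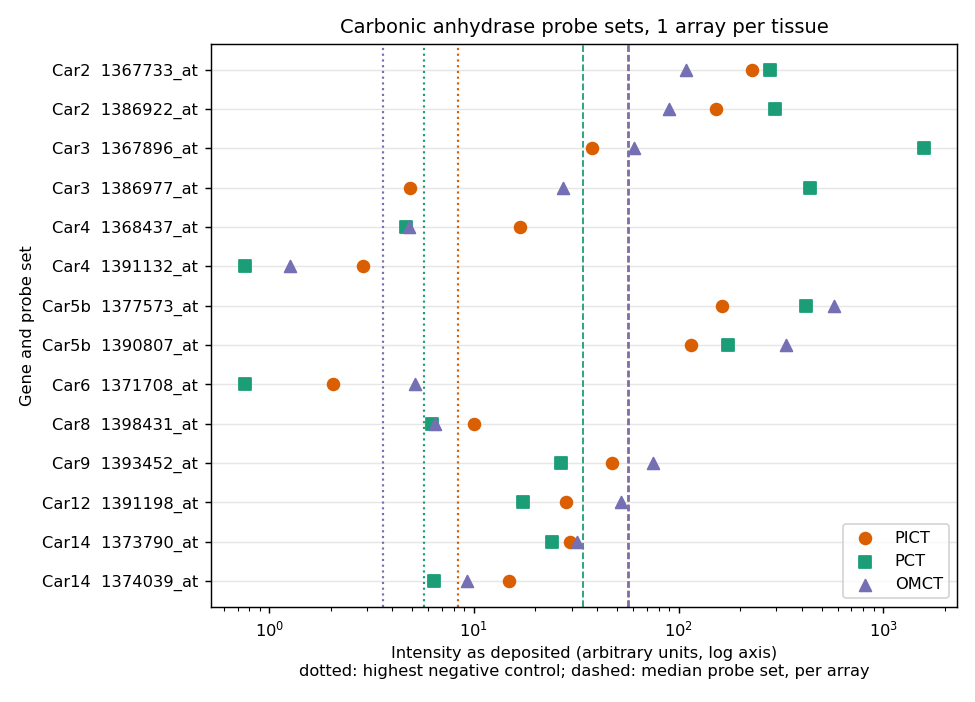
Intensity as deposited (arbitrary units, log axis) of the 14 carbonic anhydrase probe sets, with 1 point per tissue. Dotted lines mark the highest negative control and dashed lines the median probe set of each array. Both Car3 probe sets are far brighter in PCT (1575 and 441) than in PICT (37.8 and 4.87) or OMCT (60.5 and 27.3), and those of Car4, Car6 and Car8 lie near or below the negative controls.

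**Figure D2:**
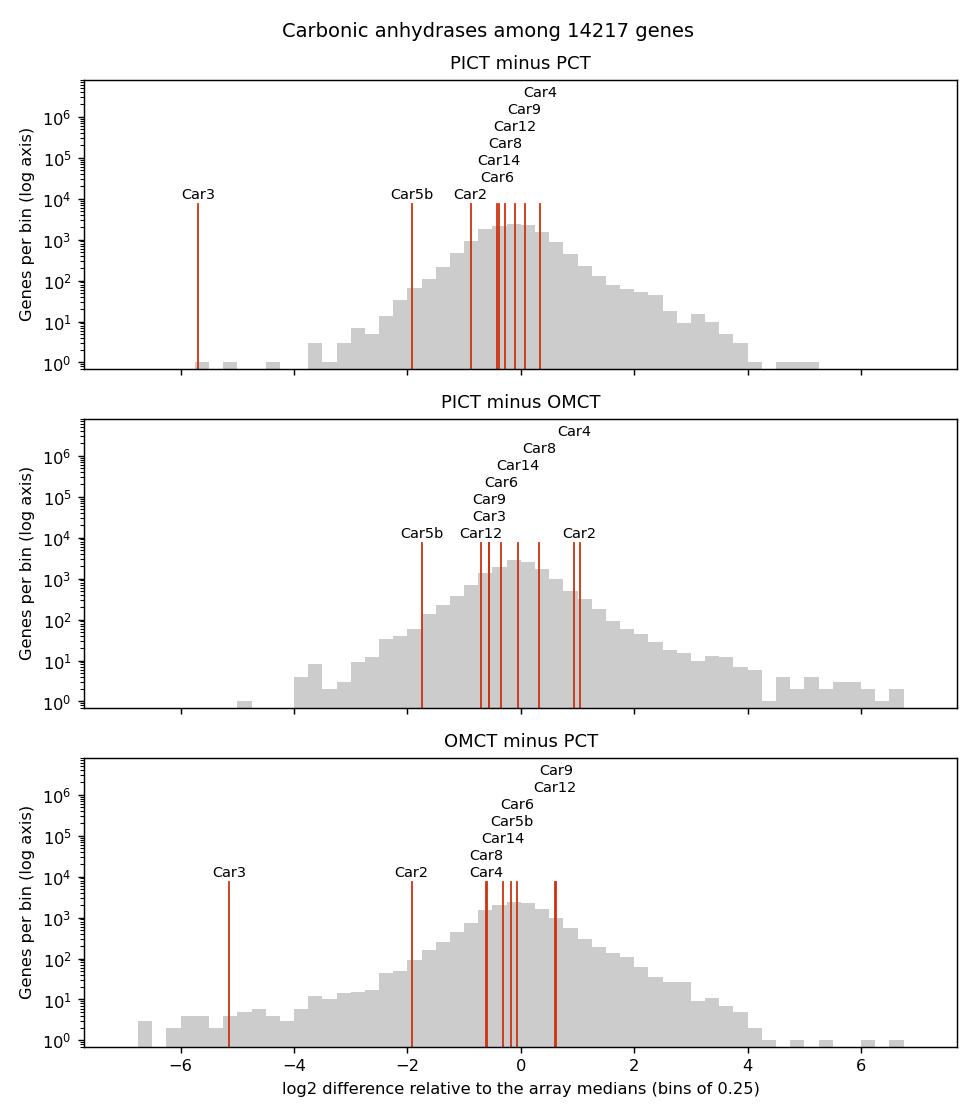
Number of genes per bin of relative log2 difference (grey bars, log axis) for the 3 comparisons, with red lines at the 9 carbonic anhydrases. Car3 lies at the lower end of PICT minus PCT at -5.70, Car5b at -1.92, and the other 7 members between -0.89 and 0.34 among the 14217 genes.

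Among the cytosolic enzymes, Car3 differed most. Car3 is a slow isoform that is abundant in skeletal muscle, fat and liver, where it has been linked to protection against oxidation. Its probe set 1367896_at gave an intensity of 37.8 for PICT, 1575 for PCT and 60.5 for OMCT. The second Car3 probe set, 1386977_at, read 4.87, 441 and 27.3. On both probe sets PCT was the bright array and PICT the dimmest, and the PICT value of the second lay under the highest negative control of its array (8.36), so its difference is not exact. The relative difference of Car3 was -5.70 for PICT minus PCT (as deposited -5.09) and -5.14 for OMCT minus PCT (as deposited -4.52). The second probe set gave -5.67 and -4.27. Between the operated sites the values were close by comparison, at -0.56 on the first probe set and -1.40 on the second for PICT minus OMCT. By size, the Car3 difference ranked lowest, 1 of 14217 genes, in PICT minus PCT and 18 from the lowest in OMCT minus PCT.

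Markers of tissues rich in Car3 were read beside it. Skeletal muscle, which lies close to the molar region, was represented by 20 genes. Of these, 18 lay below the median of every array and could not pass the rule. Between PICT and PCT 0 of 20 passed it, and 1 was lower in OMCT than in PCT. That gene was Myh1, a fast myosin heavy chain, at -1.35, and its intensity was high on all arrays (3339 for PICT, 2681 for PCT and 1620.4 for OMCT). Tnnt3, the fast skeletal troponin T, was the other above the median, at 115, 46.1 and 80.7. The other muscle genes lay below the median of each array. Tnni2, the fast troponin I, read 29.2 in PCT, where the median was 34.3, Acta1, skeletal actin, read 9.86, Ckm, the muscle creatine kinase, read 23.0, and Myh4 read 3.87, under the highest negative control of that array (5.71). Without the filter on dim genes, 6 of 20 were at least 2-fold lower in PICT than in PCT, among them Ckm at -1.58, Myl1 (a myosin light chain) at -1.23 and Tnnc2 (the fast troponin C) at -1.11, and 6 of 20 were lower in OMCT than in PCT. The PICT values of Ckm and Myl1 lay under the highest negative control of that array, so these sizes are not exact. The list median was -0.45 for PICT minus PCT (all genes -0.13) and -0.66 for OMCT minus PCT (all genes -0.08), the direction of Car3, and 0.15 and -0.04 as deposited. The summed intensity of the muscle list, most of it Myh1, was 3641 for PICT, 2891 for PCT and 1889 for OMCT, and divided by the array median it was 64.5, 84.3 and 32.9. Without Myh1 the sum was 302, 210 and 268, and divided by the array median it was 5.35, 6.12 and 4.68. With or without Myh1, the array with the highest sum turned with the scaling, from PICT to PCT. The part of muscle in the Car3 difference was not tested.

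The adipocyte list was read in the same way. Of 17 measured genes, 10 lay below the median of every array. PICT minus PCT had 2 higher and 0 lower, and OMCT minus PCT had 2 higher and 2 lower. Fabp4, a fatty acid carrier of fat cells, endothelium and macrophages, was higher in PICT than in PCT by 3.31, and Lpl, lipoprotein lipase, by 1.47, opposite to Car3. In OMCT against PCT Lpl was again higher, by 2.21, while Dgat2, a triglyceride synthase, was lower at -2.14. Adipoq (adiponectin) read 5.91 and Plin1 (the perilipin of fat droplets) 5.42 in PCT, next to a highest negative control of 5.71. Without the filter on dim genes, 5 of 17 were lower in PICT than in PCT and 4 of 17 lower in OMCT than in PCT. Among the former, Adipoq, Cidec and Gpd1 lay under the highest negative control in PICT, so their sizes are not exact. The list medians were -0.21 and -0.36 (all genes -0.13 and -0.08), and 0.39 and 0.26 as deposited, so their sign turned with the scaling. The summed intensity of this list was 2891 for PICT, 1413 for PCT and 1671 for OMCT, and divided by the array median it was 51.2, 41.2 and 29.1. The part of adipocytes in the Car3 difference was not tested.

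The genes nearest to Car3 in pattern over the 3 arrays, among 9854 genes that reached the array median somewhere, were Krt19, Krt36 and Mfsd4a, at Euclidean distances of 1.26, 1.37 and 1.53 on the log2 scale. Krt19, the keratin of simple epithelia and of the junctional epithelium at teeth, read 20.3 for PICT, 603 for PCT and 82.6 for OMCT. Krt36, a hard keratin of hair and tongue, read 17.5, 365 and 1.80. Mfsd4a, a membrane transporter, read 55.6, 491 and 28.2. All were brightest in PCT, as Car3 was. Krt36 in OMCT lay under the highest negative control of that array (3.60), and Krt36 and Mfsd4a were lower in OMCT than in PICT, whereas Car3 was lower in PICT. In the junctional and simple epithelium list 3 of 7 measured genes were lower in PICT than in PCT and 5 of 7 lower in OMCT than in PCT, with 0 higher in either. Its summed intensity was 3350 for PICT, 3743 for PCT and 1197 for OMCT, and its part in the Car3 difference was not tested.

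Car2 is the fast cytosolic isoform, found in osteoclasts, red cells and many epithelia, and in osteoclasts it supplies protons for dissolving bone. Its probe set 1367733_at gave an intensity of 228 for PICT, 279 for PCT and 108 for OMCT. The second, 1386922_at, read 153, 295 and 89.8. On both, PCT was brightest and OMCT dimmest. The relative difference was -1.92 for OMCT minus PCT on the first probe set and -2.25 on the second (as deposited -1.30 and -1.63). For PICT minus OMCT it was 1.04 and 0.74, so Car2 sat at the edge of the 2-fold rule and was past it on 1 of its 2 probe sets. For PICT minus PCT it was -0.89 and -1.51. As deposited these last values were -0.28 and -0.91, both under 2-fold.

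Osteoclast genes were read beside Car2. Of 12 measured, PICT minus PCT had 6 higher and 0 lower, and so had OMCT minus PCT, the comparison in which Car2 was lower. Ctsk (cathepsin K, the main collagen protease of osteoclasts) was higher in OMCT than in PCT by 2.27, Itgb3 (an osteoclast integrin chain) by 1.82, Tnfrsf11a (the receptor RANK) by 1.36 and Tcirg1 (an osteoclast proton pump subunit) by 1.34. In PICT against OMCT 1 of 12 was higher, Mmp9 (gelatinase B), by 1.59. The calcitonin receptor Calcr lay below the median of all arrays, and in PCT, at 5.25, under the highest negative control. The listed genes Atp6v0d2, Oscar, Dcstamp and Ocstamp were not measured. In OMCT against PCT 13 of 14 macrophage genes and 9 of 14 fibroblast genes were higher too, and which cells the osteoclast list reports on was not tested. The summed intensity of the osteoclast list was 7951 for PICT, 2171 for PCT and 8374 for OMCT, and its part in the Car2 difference was not tested.

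The differentiated oral epithelium list was lowest in OMCT as Car2 was, with a summed intensity of 42067 for PICT, 36284 for PCT and 5897 for OMCT. Divided by the array median the sum was 745, 1059 and 103, so the array with the highest sum turned with the scaling, from PICT to PCT. The part of this epithelium in the Car2 difference was not tested. The nearest genes to Car2 were Tmem51 (a membrane protein), Il1rn (the interleukin 1 receptor antagonist, made in quantity by keratinocytes) and Cd247 (the zeta chain of the T cell receptor), at distances of 0.05, 0.06 and 0.08. Il1rn read 1716 for PICT, 1991 for PCT and 803 for OMCT. With 3 arrays many genes share a pattern, and likeness here says nothing of shared function.

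Car5b, the broadly expressed mitochondrial isoform, which supplies bicarbonate to mitochondrial enzymes, was dimmest in PICT. Its probe set 1377573_at gave an intensity of 163 for PICT, 417 for PCT and 576 for OMCT, and 1390807_at read 115, 174 and 335. PICT was the lowest array on both. The relative difference was -1.92 for PICT minus PCT and -1.75 for PICT minus OMCT on the first probe set, and -1.17 and -1.46 on the second. As deposited, PICT minus PCT was -1.31 on the first probe set and -0.57 on the second, so without scaling the second was under 2-fold. OMCT minus PCT was -0.17 on the first and 0.29 on the second (0.46 and 0.92 as deposited), so the order of OMCT and PCT turned with the probe set and with the scaling.

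The genes nearest to Car5b were Sybu (syntabulin, an adaptor for transport along microtubules, mitochondria included), RGD1309362 and Thrb (thyroid hormone receptor beta), at distances of 0.06, 0.07 and 0.08. Thrb read 151 for PICT, 359 for PCT and 530.4 for OMCT, and Sybu read 33.3, 90.7 and 127. RGD1309362 read 7.96, 35.3 and 50.9, and its PICT value lay under the highest negative control of that array (8.36). Endothelial genes, a list set beside Car5b after its values were seen, were lower in PICT than in PCT for 6 of 11 (2 of 11 as deposited), lower in PICT than in OMCT for 6 of 11, and past the rule for 0 of 11 between OMCT and PCT. The summed intensity of that list was 3021 for PICT, 3335 for PCT and 5831 for OMCT, and divided by the array median it was 53.5, 97.3 and 102. The part of endothelium in the Car5b difference was not tested.

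**Figure D3:**
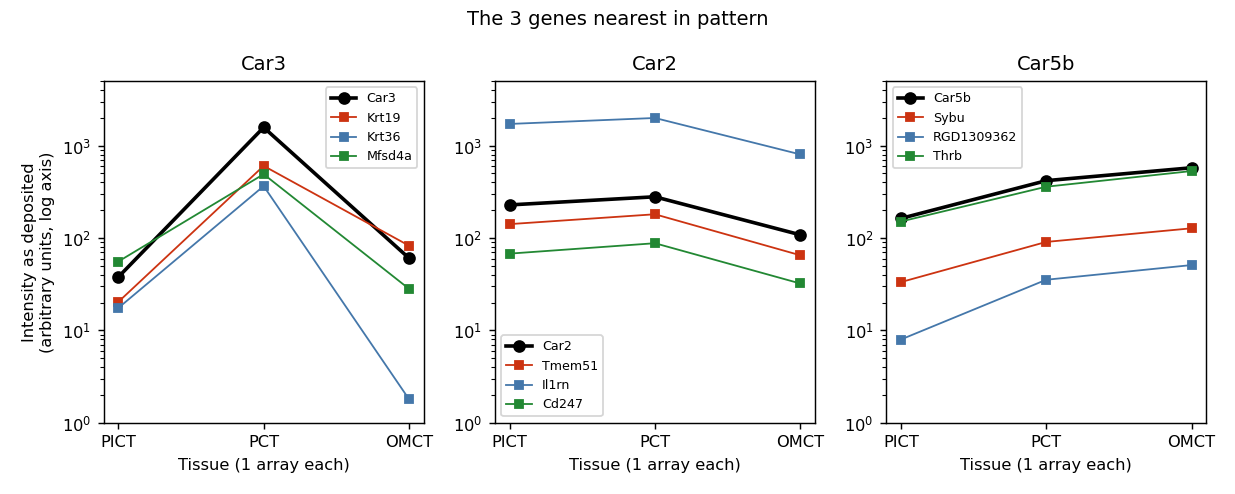
Intensity as deposited (arbitrary units, log axis) in PICT, PCT and OMCT of Car3, Car2 and Car5b (black) and of the 3 genes nearest to each in pattern (coloured), 1 array per tissue. Car3 and its nearest genes peak in PCT, Car2 and its nearest genes are lowest in OMCT (108 for Car2), and Car5b and its nearest genes are lowest in PICT (163 for Car5b).

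**Figure D4:**
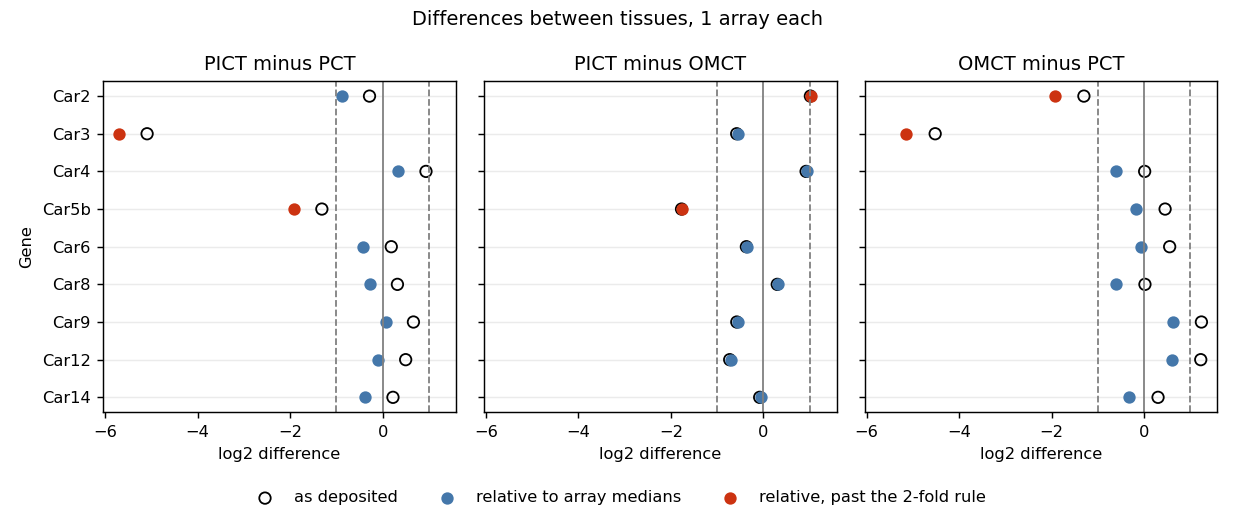
log2 difference of the 9 measured carbonic anhydrases in the 3 comparisons, relative to the array medians (filled, red where past the 2-fold rule) and as deposited (open). Dashed lines mark 2-fold. Car3 lies at -5.70 and -5.14 against PCT, and the open points lie 0.60 and 0.62 to the right in the comparisons with PCT.

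The membrane enzymes Car9 and Car12 were both brightest in OMCT. Both work outside the cell, and in many tissues both are induced when oxygen is low, Car9 through hypoxia-inducible factor. Car9 (1393452_at) gave an intensity of 47.5 for PICT, 26.7 for PCT and 74.8 for OMCT. Car12 (1391198_at) read 28.1, 17.4 and 52.1. As deposited PCT was the dimmest array for each, whereas relative to the array medians PICT was the lowest for Car12. The relative difference of OMCT minus PCT was 0.62 for Car9 and 0.60 for Car12, neither past the rule, and as deposited it was 1.24 and 1.23, where Car9 passed (1 of 9 members, against 17.6% of all genes) and Car12 stayed below the median of both arrays. For PICT minus OMCT the relative values were -0.55 and -0.71. For PICT minus PCT they were 0.07 and -0.10, and 0.67 and 0.50 as deposited, so the sign for Car12 turned with the scaling. Only 1 probe set covers each of them.

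The promoters of Car9 and Car12 are shown because these members were both brightest in OMCT and are textbook targets of the hypoxia response, and that of Car5b because it was the member past the 2-fold rule for which RefSeq's table (build GRCr8) held a sequence. The window runs from 250 bases before to 50 after the start that the table uses. Capitals mark ACGTG, the core letters bound by hypoxia-inducible factor, searched on both strands, where it reads CACGT when it lies on the other strand. The Car9 window is chr5:62558774-62559073, the Car12 window chr8:76169565-76169864 and the Car5b window chrX:34118776-34119075, all on the + strand.
Car9: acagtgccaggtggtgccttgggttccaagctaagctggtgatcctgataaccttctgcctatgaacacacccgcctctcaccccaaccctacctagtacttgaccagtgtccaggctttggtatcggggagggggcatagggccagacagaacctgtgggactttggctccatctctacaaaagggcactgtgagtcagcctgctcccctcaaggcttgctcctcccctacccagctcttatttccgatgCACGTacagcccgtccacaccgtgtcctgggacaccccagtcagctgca
Car12: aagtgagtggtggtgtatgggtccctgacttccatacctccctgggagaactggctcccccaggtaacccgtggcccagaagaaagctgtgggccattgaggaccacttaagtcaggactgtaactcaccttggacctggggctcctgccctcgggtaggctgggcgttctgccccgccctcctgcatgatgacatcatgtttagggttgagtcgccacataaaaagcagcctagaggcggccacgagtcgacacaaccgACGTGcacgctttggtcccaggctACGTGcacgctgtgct
Car5b: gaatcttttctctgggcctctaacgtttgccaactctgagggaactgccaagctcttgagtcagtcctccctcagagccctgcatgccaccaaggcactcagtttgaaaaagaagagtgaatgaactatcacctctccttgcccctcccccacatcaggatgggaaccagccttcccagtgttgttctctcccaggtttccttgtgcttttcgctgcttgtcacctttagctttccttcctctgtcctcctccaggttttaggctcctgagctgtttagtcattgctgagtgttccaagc
Car9 held 1 match, which began at base 2 counted from the start, on the other strand, and Car12 held 2, at bases 11 and 35. Car5b held 0 matches. The table held a promoter for 5 of the 10 listed genes, and 4 of these had at least 1 match, with 2 in Car4 and 1 in Car14. Of 33469 promoters of this length, 19.3% held the letters. None of the members' matches was part of the longer motif CACGTG, which 6.42% of promoters held. A match is a description of letters and shows no binding.

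The hypoxia list was read beside Car9 and Car12. Of 25 genes, PICT minus PCT had 1 higher and 1 lower, PICT minus OMCT had 4 higher and 1 lower, and OMCT minus PCT had 1 higher and 3 lower. Of all genes, 3.98%, 4.15% and 5.66% were higher and 3.37%, 4.46% and 4.81% lower in these comparisons. The list median was -0.10, 0.20 and -0.29, against -0.13, -0.04 and -0.08 over all genes. In OMCT against PCT, where Car9 was at 0.62, Vegfa (the endothelial growth factor) was lower at -1.45, Pdk1 (which diverts pyruvate from mitochondria) and Kdm3a (a histone demethylase) were lower at the edge of the 2-fold rule, while Lox (a collagen crosslinking enzyme) was higher at 2.11. In PICT against OMCT the higher genes were Bnip3 (a mitophagy receptor) at 1.19, Pdk1 at 1.18, Egln3 (an oxygen sensing hydroxylase) at 1.01 and Vegfa at 1.01. The lower gene was Epas1, the factor HIF-2 alpha, at -1.27. Egln3 and Vegfa sat at the edge of the rule. As deposited both were at 0.99, and PICT minus OMCT had 2 higher and 1 lower. As deposited, PICT minus PCT had 5 higher and 0 lower (median 0.51) and OMCT minus PCT had 3 higher and 0 lower (median 0.33). Of all genes, 14.1% and 17.6% were then higher and 0.9% and 2.1% lower. The direction of the list median thus turned with the scaling in both comparisons with PCT.

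Car4 and Car14, the remaining membrane enzymes, were dim. Car4, found on capillary endothelium and on epithelia, gave an intensity of 16.8 for PICT, 4.69 for PCT and 4.81 for OMCT on 1368437_at. Its other probe set, 1391132_at, read 2.88, 0.761 and 1.27, under the highest negative control of each array (8.36, 5.71 and 3.60). As deposited, PICT was the brightest array on both, yet only the first probe set in PICT and OMCT exceeded the negative controls, so its differences in the plots are not exact. Car14, known from retina, kidney and liver, read 29.6, 24.1 and 31.7 on 1373790_at and 14.9, 6.36 and 9.30 on 1374039_at. Its probe sets lay under the median on every array and, as deposited, put different arrays on top.

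The secreted enzyme Car6, a salivary gland product that buffers saliva, gave an intensity of 2.06 for PICT, 0.764 for PCT and 5.13 for OMCT on its probe set 1371708_at. Only the OMCT value exceeded the highest negative control of its array. Of 11 salivary gland genes measured, 1 was higher in PICT and in OMCT than in PCT. That was Kcnn4, a potassium channel also found in immune cells, at 1.47 and 2.24. Of the 11, 5 lay under the highest negative control on every array, among them the saliva proteins Amy1 (amylase) and Bpifa2, and 3 lay above it on every array. These were Kcnn4, Lpo (the lactoperoxidase of saliva), at 55.9 for PICT, 20.6 for PCT and 5.02 for OMCT, and Prb1 (a proline-rich saliva protein), at 14.7, 10.9 and 11.4. Car8, best known from cerebellar Purkinje cells, read 9.98 for PICT, 6.28 for PCT and 6.48 for OMCT on 1398431_at, above the negative controls of each array.

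For members this dim the sign of a difference from PCT rested on the scaling. Relative to the array medians, PICT minus PCT was -0.28 for Car8 and -0.38 for Car14, and as deposited it was 0.32 and 0.22. Over OMCT minus PCT, the relative values of Car8 and Car14 were -0.60 and -0.32, and as deposited they were 0.02 and 0.30.

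Of the 6 other carbonic anhydrase genes looked for, 5 had a probe set and 0 passed the rule in any comparison. Car1, the red cell isoform, gave an intensity of 8.26 for PICT, 23.7 for PCT and 6.90 for OMCT, below the array median throughout. Its relative difference was -1.54 for PICT minus PCT and -1.69 for OMCT minus PCT, and -0.94 and -1.06 as deposited. Its PICT value lay under the highest negative control of that array (8.36), so the PICT difference is not exact. In the erythrocyte list, which includes Car1, 3 of 8 measured genes were lower in PICT than in PCT and 3 of 8 lower in OMCT than in PCT. Hbb, the beta globin, read 415 for PICT, 765 for PCT and 129 for OMCT, with differences from PCT of -1.47 and -3.12, and Alas2, the first enzyme of red cell heme synthesis, was at -1.84 and -2.43. Both were brightest in PCT, where Car1 and Car2 were also brightest, and the summed intensity of the list was 467 for PICT, 904 for PCT and 219 for OMCT. The part of red cells in the Car1 and Car2 differences was not tested. Car5a, Car7 and Car10 lay under the highest negative control in PICT and PCT. Car11, a family member without catalytic activity, had 3 probe sets that did not agree. For OMCT minus PCT they gave -2.56, -0.60 and -0.53, and for PICT minus OMCT 1.44, 0.48 and -0.33. The count above uses the probe set of highest mean level, with the middle values, and the first would have passed the rule in both comparisons with PCT.

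In the RefSeq gene order Car2, Car3, Car1 and Car13 are adjacent protein-coding genes on the same chromosome. The measured members of that cluster, Car2, Car3 and Car1, were each brightest in PCT. The nearest measured genes beyond Car13, looked at after the values of the cluster were seen, did not pass the rule in any comparison. Rbis (a ribosome assembly factor) read 1647 for PICT, 1041 for PCT and 1369 for OMCT, with differences from PCT of 0.06 and -0.23. E2f5 (a cell cycle transcription factor) read 91.2, 85.4 and 93.9, with differences of -0.52 and -0.50. On the other side, 10 protein-coding genes in a row had no value here.

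Genes that carry the substrates and products of carbonic anhydrases were looked at as a list of bicarbonate, proton, lactate and water transporters and their partners. Of 21 measured, PICT minus PCT had 1 higher and 2 lower, PICT minus OMCT had 2 higher and 2 lower, and OMCT minus PCT had 1 higher and 2 lower. Of all genes, 3.98%, 4.15% and 5.66% were higher and 3.37%, 4.46% and 4.81% lower in these comparisons. The list medians were -0.32, 0.08 and -0.37, against -0.13, -0.04 and -0.08 over all genes. As deposited the counts in PICT minus PCT were 2 higher and 0 lower, and in OMCT minus PCT 5 higher and 0 lower. Of all genes, 14.1% and 17.6% were then higher and 0.9% and 2.1% lower.

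The lactate exporter Slc16a3 (MCT4) was the transporter with the widest gap between PICT and PCT. It gave an intensity of 773 for PICT, 96.5 for PCT and 246 for OMCT, a difference of 2.29 against PCT and 1.64 against OMCT. Slc16a7 (MCT2), which takes up lactate and pyruvate, was brightest in OMCT, with 38.7 for PICT, 27.0 for PCT and 152 for OMCT. Its difference was -1.74 for PICT minus OMCT and 1.55 for OMCT minus PCT. The water channel Aqp1, found on endothelium and red cells, was lowest in PICT, at 196, 389 and 897, with differences of -1.56 and -2.13 for PICT against PCT and OMCT. Aqp3, the water and glycerol channel of keratinocytes, read 1924, 1408 and 875, lowest in OMCT. Nherf1, a scaffold that holds transporters at the membrane, was highest in PCT, at 113, 202 and 120, with differences from PCT of -1.40 in PICT and -1.34 in OMCT. The anion exchanger of the red cell, Slc4a1, and the channel Cftr lay under the highest negative control on all arrays. The bicarbonate carriers Slc4a2 and Slc4a7 were above the median on every array and did not pass the rule in any comparison. Slc4a7 sat at its edge in PICT minus OMCT, at -0.996 (as deposited -1.02). As deposited, Slc4a2 was past 2-fold against PCT, at 1.28 in PICT and 1.18 in OMCT.

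**Figure D5:**
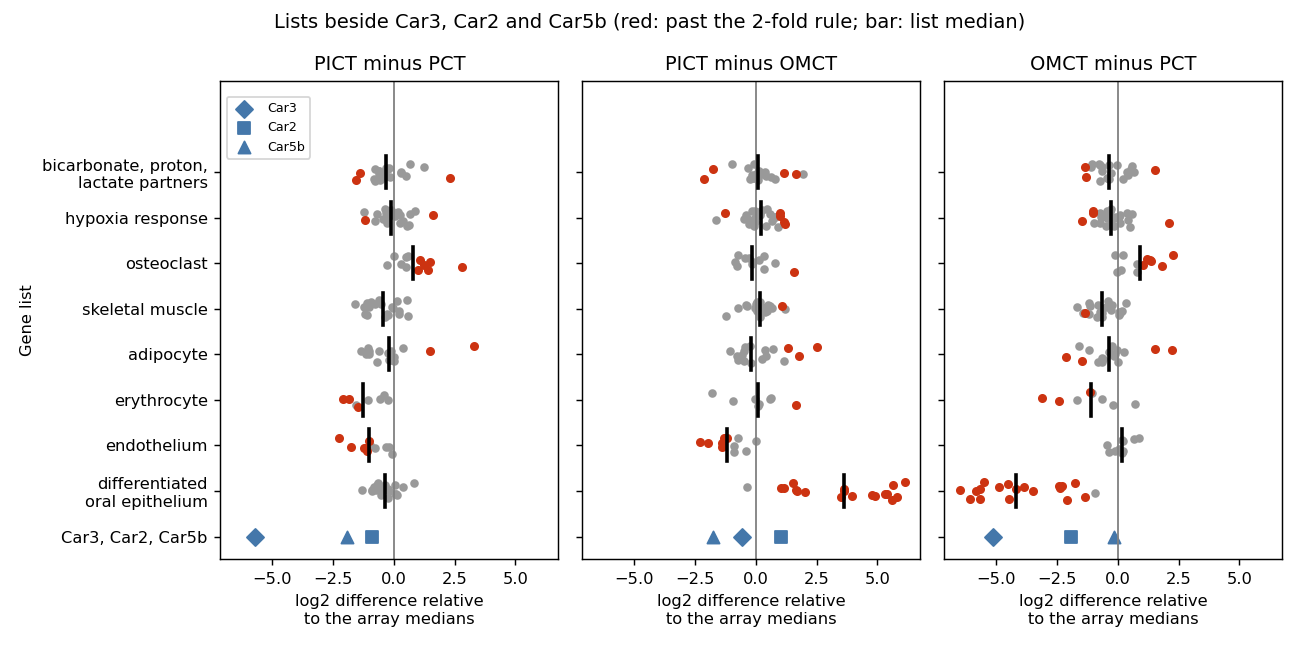
Relative log2 difference of each measured gene in 8 lists (points, red where past the 2-fold rule) with the list median (bar), beside Car3, Car2 and Car5b (blue). In PICT minus PCT 0 of 20 muscle genes and 2 of 17 adipocyte genes pass the rule, both of the latter higher, with list medians of -0.45 and -0.21, while Car3 lies at -5.70. In OMCT minus PCT 6 of 12 osteoclast genes are higher while Car2 lies at -1.92.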

How the data were processed

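RNA from 3 tissues was read on 1 rat GeneChip each. The deposited intensities are the authors' linear values, 1 per probe set. Per the labels' protocols, the GeneChip 3'IVT Express kit was used to amplify the RNA and label it with biotin. Not given in the sources used here are probe summarisation and array scaling. The number of arrays limits the precision.

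Of 31099 probe sets, 20832 had 1 gene symbol in the platform annotation, 436 several and 9831 none; those with 1 symbol, less controls, were used. A gene was represented by its probe set of highest mean log2 value. The pseudocount was the 20th percentile of all values, and each array's median log2 value was subtracted. Of 230 list entries, 204 were measured, matched by symbol or RefSeq gene ID. The highest negative control is the brightest of 3 TrpnX probe sets. The rule was tested on simulated data. Python 3.11.15, numpy 2.4.6 and pandas 2.3.3 were used.

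Members and lists were chosen with earlier results of these data known. Named were all members and other carbonic anhydrases, up to 4 genes of a list past the 2-fold rule with the widest difference, dim defining markers, and the 3 genes nearest in pattern to the 3 members of widest range. Genes outside that rule, such as Slc4a2, Slc4a7, Rbis, E2f5, Tnnt3, Epb42, Lpo and Prb1, were named after their values were seen. Alternatives changed the scaling, the pseudocount, the probe set, the filter on dim genes and the fold.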

Additional observations from a re-analysis of the deposited data

How the results depend on the processing

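Of 48 recomputed member counts, 44 stayed within 1.5 times the main count. The exceptions were the count of members higher in PICT than in OMCT, which fell from 1 (Car2) to 0 with the pseudocount at the median of all values (48.4) and with the mean over a gene's probe sets, and that of members higher in OMCT than in PCT, which went from 0 to 1 (Car9) with no scaling between arrays and with a 1.5-fold rule. The lower calls of Car3 and Car5b in PICT minus PCT, of Car5b in PICT minus OMCT and of Car2 and Car3 in OMCT minus PCT held in all 8 alternatives. In PICT minus PCT Car2 joined the lower members with the mean over a gene's probe sets (-1.20) and with the 1.5-fold rule, for a count of 3. Over the settings of scaling, pseudocount and probe set, Car3 ranged from -6.05 to -4.58 in PICT minus PCT and from -5.41 to -4.25 in OMCT minus PCT, Car5b from -2.06 to -1.31 in PICT minus PCT and from -1.79 to -1.55 in PICT minus OMCT, and Car2 from -2.09 to -1.30 in OMCT minus PCT and from 0.83 to 1.09 in PICT minus OMCT. Of 135 recomputed member differences, 29 moved by more than the spread between probe sets of a gene. Of 720 recomputed list counts, 107 moved by more than 1.5 times. Signal near the negative controls limits Car4, Car6 and Car8. No paired analysis was possible because each tissue has 1 array.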
